A study of Mus musculus with 6 samples.

Results

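C/D box small nucleolar RNAs (snoRNAs) were examined as they appear in small RNA libraries of mouse round spermatids with and without the gene Miwi. The entries of the deposited small RNA count table that are named as snoRNAs and whose symbol starts with Snord were taken, and those with at least 15 counts summed over the 6 libraries were kept. This left 53 of 75 Snord entries, of 45932 entries in the table. The members had between 19 and 2039 counts each and 16581 counts together. The members were thus chosen by their summed counts, so their abundance is given as a description. Of the 53 members, 32 reached 15 counts in the KO libraries and in the WT libraries, 20 reached it only in the WT libraries, 0 only in the KO libraries and 1 in neither genotype alone. The members nearest to the threshold were Snord90 with 19 counts and Snord15a and Snord35a with 22 each, and the nearest entries below it were Snord23 with 14 and Snord83b, Snord89 and Snord91a with 13 each.

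C/D box snoRNAs are short stable RNAs of the nucleolus. A C box near the 5′ end and a D box near the 3′ end are bound by a shared set of proteins that includes the methyltransferase fibrillarin, and the bases before the D box (or before an internal D′ box) pair with a target RNA to mark the nucleotide that receives a 2′-O-methyl group. Most members guide the methylation of 18S or 28S ribosomal RNA, and a few guide U6 snRNA. Some, such as U8 (Snord118) and U22 (Snord22), act in the cleavage steps of ribosomal RNA maturation. U13 (Snord13) is not a methylation guide either. Most mammalian C/D box snoRNAs are cut out of introns of host genes, many of which encode ribosomal proteins or translation factors. In small RNA libraries, reads at these genes can come from fragments of the snoRNA as well as from the whole RNA. The table holds no read lengths or read positions, so neither can be told from these counts, and the values below are counts per snoRNA gene.

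The samples were purified round spermatids, haploid male germ cells that have completed meiosis, from testes of C57BL/6 mice (C57BL/6J background) at postnatal day 21. The Miwi knockout (KO) group had 3 libraries from a global Miwi knockout line re-established from frozen sperm, and the wild-type (WT) group had 3 libraries from mice with no stated alteration. Miwi encodes MIWI (PIWIL1), a PIWI protein that binds pachytene piRNAs in spermatocytes and round spermatids. Both groups carry replicate numbers 1 to 3, and nothing in the labels says that the libraries came from separate mice, so p-values describe the scatter among these libraries, which may be technical in part or whole. The label round spermatids was checked on miRNAs because the tables hold no mRNA: miR-34b-5p, miR-34c-5p and miR-449a-5p, which are abundant in meiotic and later male germ cells, made up 29.6% to 33.5% of the miRNA counts in KO and 27.4% to 29.1% in WT, and 7 miRNAs of vascular, smooth muscle, blood and Sertoli cells made up 2.51% to 2.91% in KO and 3.04% to 4.05% in WT. Neither sum overlapped between the genotypes. Miwi mRNA was not analysed here, and the genotypes were not checked through it.

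The deposited entries match reference snoRNA genes. Each of the 53 members matched a GENCODE M21 transcript (build GRCm38) of the same length, between 64 and 148 nt with a median of 75 nt. The C box letters TGATGA (or the shorter TGATG) were looked for in the first 20 nt and the D box letters CTGA in the last 15 nt, on the RNA strand. The C box letters were present in 44 members, in 33 of them in full. The D box letters were present in 51, and 44 members held both. Among 37 H/ACA (Snora) entries, the other main snoRNA class, 0 held both boxes, as did 162 of 1260 snoRNA entries with other names (12.9%). A match is a description of letters and not of a bound protein. The 6 following RNAs are shown because they were the most abundant members with a printable sequence, 5′ to 3′ as DNA letters with the C and D boxes in capitals.
Snord98: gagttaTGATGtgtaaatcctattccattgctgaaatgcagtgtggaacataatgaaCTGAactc
Snord4a: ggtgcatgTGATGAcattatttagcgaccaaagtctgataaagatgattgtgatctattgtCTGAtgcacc
Snord37: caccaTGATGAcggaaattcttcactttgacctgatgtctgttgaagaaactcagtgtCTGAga
Snord73a: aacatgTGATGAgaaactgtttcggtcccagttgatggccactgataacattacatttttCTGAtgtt
Snord45b: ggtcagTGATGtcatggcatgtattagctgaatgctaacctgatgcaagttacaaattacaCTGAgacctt
Snord2: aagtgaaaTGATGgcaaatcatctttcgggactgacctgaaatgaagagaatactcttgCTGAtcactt
Snord98 lies at chr10:62765576-62765640 on the minus strand in an intron of Ccar1, Snord4a at chr11:78181686-78181756 on the minus strand in an intron of Rpl23a, and Snord37 at chr10:81178950-81179013 on the plus strand in an intron of Eef2. Snord73a lies at chr3:86138791-86138858 on the minus strand in an intron of Rps3a1, Snord45b at chr3:153910563-153910633 on the minus strand in Rabggtb, and Snord2 at chr16:23108953-23109021 on the plus strand in Eif4a2, where both overlap an exon of an annotated host transcript. Of the 53 members, 50 lay within an annotated gene on the same strand, in 38 host genes, 17 members being in ribosomal protein genes and 5 in Gas5 or Snhg genes. Snord118, Snord13 and Snord104 had no such host.

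Library totals were 747443 to 1335013 counts in KO and 3114845 to 5037232 in WT, of which miRNAs gave 146487 to 243655 in KO and 179761 to 246030 in WT. In KO, the members gave 773, 323 and 2953 counts (replicates 1, 2 and 3), and in WT they gave 2166, 1660 and 8706. Levels are given as counts per 1000000 miRNA counts of the same library, called miRNA-scaled counts. Annotated piRNAs, which fill most of the table, were 3.96 times higher in WT than in KO on this scale, so a scale that includes piRNAs gives other values. The miRNA scale rests on miRNAs having a like abundance in both genotypes, which was not tested.

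The summed level of the 53 members was lower in KO than in WT on the miRNA scale, with overlapping libraries, and not lower on scales that include piRNAs or on tRNA counts. It was 3293, 2205 and 12119.6 miRNA-scaled counts in KO replicates 1 to 3, a mean of 5873 ± 5437 (SD, n = 3). In WT replicates 1 to 3 it was 12049, 8468 and 35386, a mean of 18635 ± 14617 (SD, n = 3). The WT mean was 3.17 times the KO mean, a log2 difference of -1.67 (KO over WT). KO replicate 3 lay above WT replicates 1 and 2, while KO replicates 1 and 2 lay below all WT libraries. The difference was -1.90 with both replicate 3 libraries left out, and it ranged from -0.80 without WT replicate 3 to -2.76 without KO replicate 3. On some other scales the direction changed: the same log2 difference was 0.15 per table total, 0.37 per annotated piRNA counts and 0.61 per tRNA counts. It stayed negative per endo-siRNA counts (-1.35), and was negative but near 0 per mitochondrial tRNA counts (-0.29) and per counts of the other snoRNA entries (-0.17). No p-value is given for this sum. In such bulk samples, fewer cells with these RNAs and less of them per cell cannot be told apart. The summed share of the somatic miRNAs moved with this difference, being lower in every KO library than in any WT library. The same held for miR-143-3p (0.711% to 0.774% in KO, 1.02% to 1.26% in WT) and miR-451a of red blood cells (0.00287% to 0.00478% in KO, 0.00723% to 0.00969% in WT). Another blood miRNA, miR-223-3p, went the other way (0.0882% to 0.0922% in KO, 0.063% to 0.0837% in WT), and the remaining somatic miRNAs overlapped. The summed germ cell miRNAs were higher in every KO library, as were miR-34c-5p and miR-449a-5p, but miR-34b-5p overlapped (19.03% to 22.85% in KO, 18.81% to 20.01% in WT). The part of these miRNAs in the result was not tested.

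**Figure D1:**
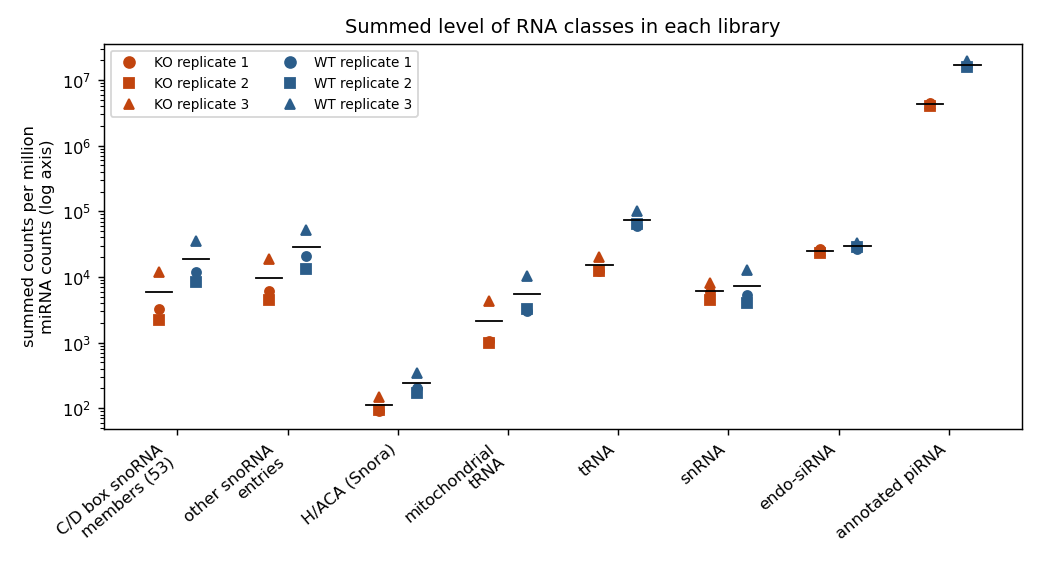
Summed counts per 1000000 miRNA counts (log axis) of 8 RNA classes in each library. Points are libraries, with the shape giving the replicate number, and black lines are group means. Replicate 3 (triangles) lies above replicates 1 and 2 for the C/D box members in both genotypes, by 4.41 times in KO and 3.45 times in WT.

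Replicate 3 was the high library for the C/D box snoRNAs in both genotypes. Its summed level was 4.41 times the mean of replicates 1 and 2 in KO and 3.45 times in WT. Among single members, replicate 3 was the highest KO library for 47 of 53, the highest WT library for 51, and the highest in both for 45. The median coefficient of variation (CV) between the 3 libraries of a group was 94.2% in KO and 75.6% in WT over the 53 members. The same excess of replicate 3 was present in the other snoRNA entries (3.53 times in KO, 3.11 times in WT) and in mitochondrial tRNAs (4.21 and 3.33 times). It was smaller in tRNAs (1.65 and 1.63 times) and in H/ACA snoRNAs (1.60 and 1.82 times, from only 225 counts in all). In snRNAs it was 1.56 times in KO but 2.77 times in WT. The piRNAs gave 1.03 and 1.21 times and endo-siRNAs 0.99 and 1.19 times. Among entries with 100 to 1000 counts, the median CV was 76.7% in KO and 77.2% in WT for 24 members, against 26.6% and 18.2% for 17021 piRNAs and 17.7% and 17.2% for 161 miRNAs. The summed share of the 7 somatic miRNAs was also highest in replicate 3, at 2.91% in KO (2.51% and 2.55% in its group's others) and 4.05% in WT (3.04% and 3.19%). Of the 7, the smooth muscle miRNA miR-145a-5p was highest in replicate 3 in both genotypes, at 1.20% in KO (0.726% and 0.806% in the others) and 1.69% in WT (0.963% and 1.15%). The other smooth muscle miRNA, miR-143-3p, was highest in WT replicate 3 (1.26% against 1.02% and 1.06%) but lowest in KO replicate 3 (0.711% against 0.718% and 0.774%), and miR-126a-3p, miR-142a-3p, miR-202-5p, miR-223-3p and miR-451a were not highest in KO replicate 3. Their part in the snoRNA levels was not tested.

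A few members held most of the counts. The first 2 by counts, Snord98 and Snord4a, held 23.4% of the members' counts, the first 6 held 54.8% and the first 12 held 73.5%. Levels were also scaled per 100 nt of annotated length, which need not make genes comparable, since read lengths and positions are not known. The order of the first 11 was the same as by level, from Snord98 with 2299 miRNA-scaled counts per 100 nt (mean of all libraries) through Snord4a (1906), Snord58b (1657), Snord37 (1518), Snord73a (1336) and Snord45b (1236) to Snord95 (362). Among the first 9 by level, neighbours in the order differed by less than the SD between the libraries of either group. The members rose together in replicate 3, so this SD does not measure how certain their order is.

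**Figure D2:**
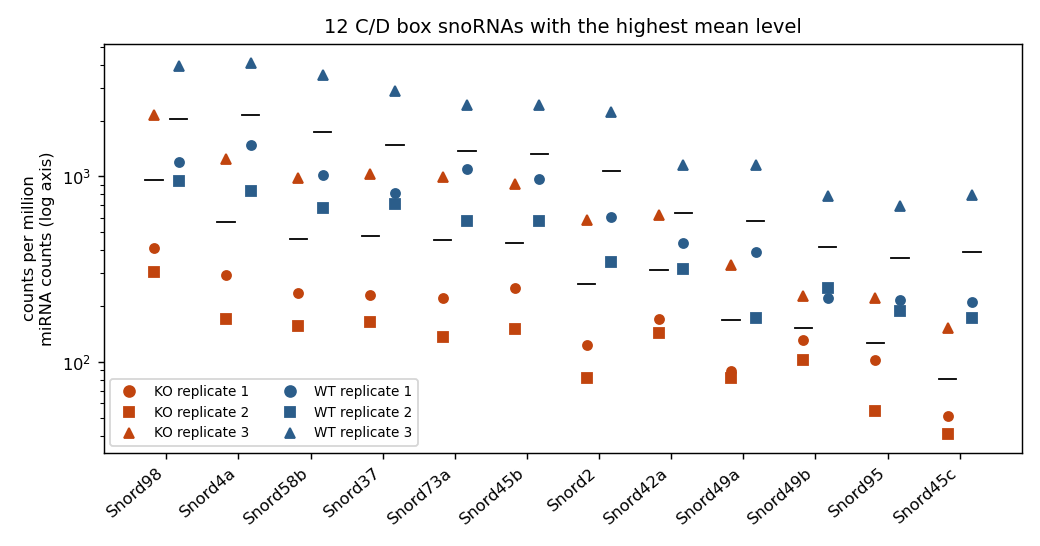
Counts per 1000000 miRNA counts (log axis) in each library for the 12 members with the highest mean level. Points are libraries, with the shape giving the replicate number, and black lines are group means; KO replicates 1 and 2 are the lowest libraries for each of the 12, while KO replicate 3 overlaps the WT libraries except for Snord45c.

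Of the lists by role, that of 18S ribosomal RNA guides held the most counts, of which Snord98 gave 2039 and Snord4a 1835. The role lists did not hold every member, so the order of the roles could differ with fuller lists. The list of such guides held 18 members and 7425 counts, with summed levels of 1478, 1017 and 5889 in KO and 5441, 3704 and 15405 in WT, so that KO replicate 3 overlapped the WT libraries. Snord98 had 413, 307 and 2151 miRNA-scaled counts in the KO libraries (replicates 1, 2 and 3, as in all such lists) and 1196, 944 and 3955 in WT, with overlap through KO replicate 3. Snord4a had 294, 171 and 1235 in KO and 1480, 837 and 4105 in WT, again overlapping. Snord45b had 251, 150 and 907 in KO and 968, 576 and 2414 in WT, and Snord45c, from the same host Rabggtb, had 51.1, 41.0 and 152 in KO and 211, 173 and 793 in WT. In Snord45c the groups did not overlap, since KO replicate 3 stayed below the lowest WT library. Among less abundant 18S guides, Snord32a (host Rpl13a) had 17.04, 13.7 and 32.8 in KO and 128, 66.3 and 301 in WT, without overlap. Snord82 (host Ncl, which encodes nucleolin) had 25.6, 13.7 and 45.1 in KO and 145, 76.5 and 366 in WT, also without overlap. Snord110 and Snord57 share the host Nop56, which encodes a protein of the C/D box particle itself; Snord110 had 8.52, 6.83 and 36.9 in KO and 128, 20.4 and 260 in WT, which overlapped, and Snord57 had 4.26, 6.83 and 41.0 in KO and 77.9, 61.2 and 142 in WT, which did not. The KO levels of Snord110 and Snord57 rest on 1 to 10 counts per library.

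Guides of 28S ribosomal RNA showed the same arrangement of libraries. The list held 21 members and 5681 counts, with summed levels of 1137, 799 and 3825 in KO and 3794, 2984 and 12592 in WT. Snord58b (host Rpl17) had 234, 157 and 981 in KO and 1018, 673 and 3500 in WT. Another entry, Gm22354, lies within 4 base edits of it and held 5 counts, against 1493 for Snord58b, and how the counting split them is not known. Snord37 (host Eef2, the translation elongation factor 2 gene) had 230, 164 and 1034 in KO and 818, 714 and 2870 in WT. Both overlapped through KO replicate 3. Snord49a and Snord49b share the host 2410006H16Rik; Snord49a had 89.5, 81.9 and 332 in KO and 389, 173 and 1158 in WT, and Snord49b had 132, 102 and 226 in KO and 223, 250 and 784 in WT. KO replicate 3 of Snord49b exceeded the lowest WT library by little. Snord95 (host Rack1) had 102, 54.6 and 222 in KO and 217, 189 and 691 in WT, and its near-identical copy Gm25296 held a further 423 counts that the counting could have split. Snord47, the only member in the growth-arrest transcript gene Gas5, had 4.26, 13.7 and 65.7 in KO and 94.6, 112 and 301 in WT, without overlap.

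Members with other roles were rarer. Snord118 (U8) had 72.4, 34.1 and 140 in KO and 278, 163 and 593 in WT, and Snord13 (U13) had 59.6, 41.0 and 45.1 in KO and 134, 117 and 260 in WT. Neither overlapped between genotypes. In Snord13, KO replicate 3 was not the highest KO library, at 0.90 times the mean of KO replicates 1 and 2. Snord22 (U22, host Snhg1) had 4.26, 6.83 and 12.3 in KO and 44.5, 76.5 and 28.5 in WT, from 35 counts in all, and in WT its replicate 3 was the lowest library. The U6 snRNA guides Snord67 and Snord8 had summed levels of 25.6, 13.7 and 53.4 in KO and 106, 128 and 146 in WT. Of the imprinted cluster snoRNAs listed, Snord64, in the Prader-Willi region, was the member found, with 17.04, 13.7 and 111 in KO and 89.0, 35.7 and 224 in WT, which overlapped. Snord118, Snord67 and Snord64 are shown with their boxes in capitals because they differ from the methylation guides above in role or in length; in Snord118 no C box letters lay in the first 20 nt.
Snord118: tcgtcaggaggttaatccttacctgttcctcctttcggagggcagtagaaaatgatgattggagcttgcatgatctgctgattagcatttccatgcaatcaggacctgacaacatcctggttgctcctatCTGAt
Snord67: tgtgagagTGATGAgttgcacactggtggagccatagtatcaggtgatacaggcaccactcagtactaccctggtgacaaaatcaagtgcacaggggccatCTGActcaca
Snord64: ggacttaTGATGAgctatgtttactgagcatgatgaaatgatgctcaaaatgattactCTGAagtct
Snord118 lies at chr11:69073427-69073561 on the plus strand, Snord67 at chr2:91596070-91596180 on the plus strand in Ckap5, and Snord64 at chr7:59978808-59978874 on the minus strand.

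All 53 members had a lower mean level in KO than in WT on the miRNA scale (with whole-table scaling 24 of the 37 tested ones turned positive), and 19 of them did not overlap between the genotypes, against 73.9% of the 33432 entries with at least 15 counts that were lower in KO without overlap. With replicates 1 and 2 alone, 47 of 53 members did not overlap, against 77.1% of those entries. The share of members without overlap was thus below the background with all libraries and above it with replicates 1 and 2 alone. Entries were tested with edgeR's quasi-likelihood test over the whole table with the miRNA total as library size, on the 37 members among 24682 entries that passed the filter on low counts (10 of the 37 had at least 10 counts in every KO library and 31 in every WT library). All 37 tested members were called lower in KO at an adjusted p of 0.05 and 0 were called higher, against 76.7% of all tested entries called lower and 6.30% called higher. With no filter, 50 of 53 were called lower, against 73.9% of 33432 entries. The median log2 change of the 37 was -1.88, and that of all tested entries, nearly all piRNAs, was -2.14, so the tested members were not below the table as a whole.

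The number of members called differed between ways of estimating the spread. The test draws each entry's estimate of the spread between replicates toward a trend fitted over the table, here called the shared spread. The piRNAs, whose replicates were much closer than those of the snoRNAs, were 24054 of the 24682 entries tested. All 37 had an unadjusted p under 0.05 in that fit. With both the spread and the adjustment taken over the RNAs other than piRNAs, 5 of 37 members were called lower (11.3% of 628 entries), and 17 had an unadjusted p under 0.05. With both taken over snoRNA entries alone, edgeR called 0 members (0% of 75 entries), with 12 at an unadjusted p under 0.05. Adding a term for the replicate number to that fit (the replicate block) gave 37 of 37 called lower (98.7% of 75 entries). Nothing in the labels says that equal numbers mark a pair. DESeq2 with miRNA size factors called 16 of 37 lower (72.4% of entries), and edgeR's robust estimate 15 (76.5%). With both replicate 3 libraries left out, 26 members passed the filter: 25 were called lower with the shared spread (72.8% of entries), 22 with the spread of RNAs other than piRNAs (20.9% of 635 entries) and 23 with the spread of snoRNA entries (87.1% of 62 entries). Without WT replicate 3 alone, 15 of 26 were called (72.6%), with a median of -0.75.

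Among the 37 tested members, the change on the miRNA scale ranged from -2.90 for Snord32a to -0.9998 for Snord19, and with no filter the 53 members ranged from -3.92 to -0.75. Snord32a differed by -2.90 ± 0.49 (SE, n = 3 per group; edgeR adjusted p = 1.50e-06, and 0.147 with the spread of snoRNA entries). The next were Snord110 at -2.85 ± 0.58, Snord82 at -2.72 ± 0.47, Snord35b at -2.72 ± 0.50, Snord47 at -2.52 ± 0.50, Snord16a at -2.49 ± 0.50, Snord57 at -2.30 ± 0.51 and Snord45c at -2.22 ± 0.42. Most of these 8 passed the filter through their WT counts, with KO counts of 4, 2 and 8 for Snord32a, 2, 1 and 9 for Snord110, 2, 2 and 8 for Snord35b and 1, 2 and 16 for Snord47, so the filter shaped which members stand at this end and neither their order nor their calls are support for a larger loss. Each of these 8 also had a negative value with factors from the whole table, between -0.23 and -0.96, and none was called there. The smallest changes were those of Snord19 at -0.9998 ± 0.36, Snord42a at -1.003 ± 0.35, Snord98 at -1.07 ± 0.40, Snord64 at -1.22 ± 0.51, Snord99 at -1.25 ± 0.44, Snord42b at -1.33 ± 0.51, Snord11 at -1.34 ± 0.40 and Snord72 at -1.41 ± 0.43. All 8 turned positive with factors from the whole table, between 0.53 and 1.00 over edgeR and DESeq2. The remaining members lay between, with Snord4a and Snord58b at -1.88 ± 0.40 each, Snord2 at -1.96 ± 0.43, Snord37 at -1.59 ± 0.39, Snord45b at -1.56 ± 0.37 and Snord73a at -1.55 ± 0.39. By role, 14 of 14 tested 18S guides (median -1.88) and 14 of 14 tested 28S guides (median -1.77) were called lower under the shared spread. So were the 1 tested U6 guide and 2 of 2 tested RNAs that are not methylation guides, Snord118 and Snord13. This is the count of the 37 again, and it is lost in the same way with the spread of snoRNA entries and no replicate block.

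**Figure D3:**
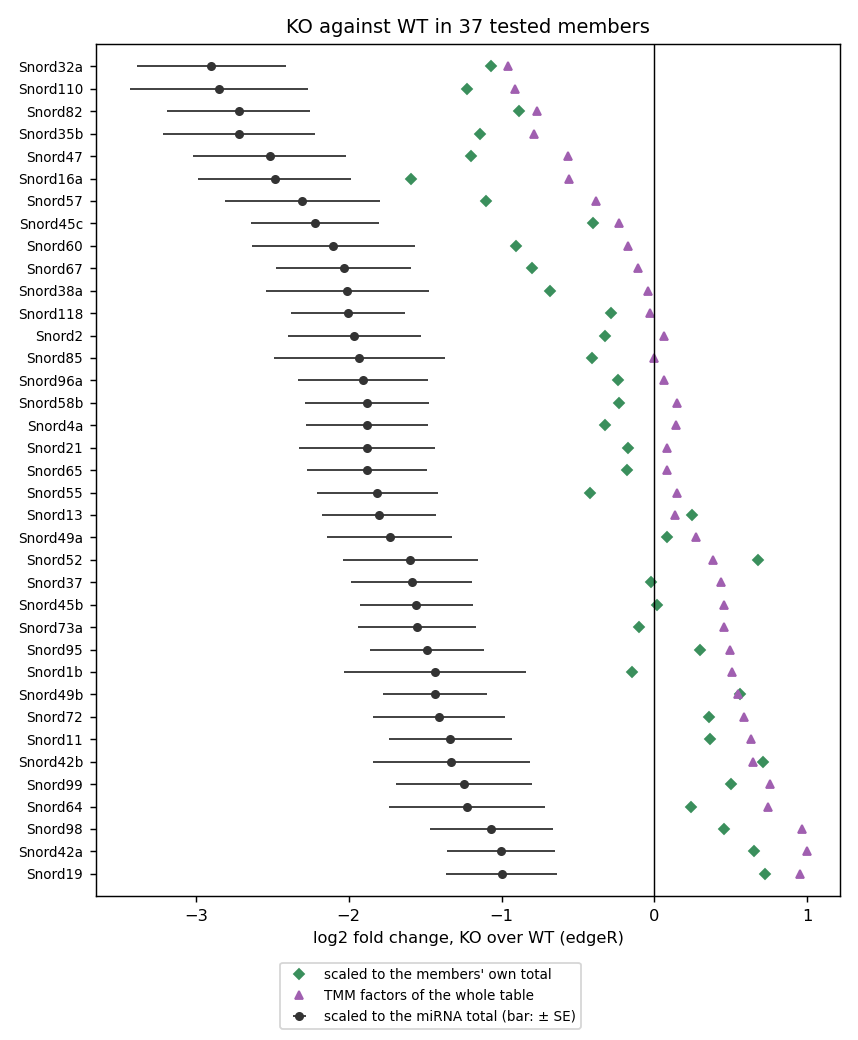
Log2 fold change (KO over WT) of the 37 tested members under 3 scalings, ordered by the value on the miRNA scale. Circles with bars (± SE) use the miRNA total, diamonds the members' own total and triangles TMM factors of the whole table; the circles lie between -2.90 and -0.9998, while diamonds and triangles lie on both sides of 0.

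Direction depended on what the counts were scaled to. With TMM factors of the whole table, which follow the piRNAs, 0 of 37 members were called lower (41.3% of entries) and 3 were called higher (34.9% of entries), and their median was 0.14 against -0.21 for all entries. The 3 were Snord42a (1.00, edgeR adjusted p = 0.00402), Snord19 (0.95, edgeR adjusted p = 0.00908) and Snord98 (0.96, edgeR adjusted p = 0.0142). With DESeq2's size factors of the whole table, Snord19 alone was called higher (0.91, DESeq2 adjusted p = 0.0366; 31.8% of entries), and 0 members were called lower (39.1%). With the table total and no factors, 1 was called lower (44.8% of entries) and 2 higher (31.6%). With TMM factors of the miRNAs, 36 of 37 were called lower (75.3%), and with those of all RNAs other than piRNAs 33 of 37 (73.3%). Most entries of the table moved with the scale, and a lower snoRNA level per miRNA cannot be told apart from a higher miRNA level per snoRNA.

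Scaling to the members' own total asks which snoRNAs took a different share of the C/D box counts. Snord98 made up 12.5%, 13.9% and 17.7% of the members' counts in KO and 9.93%, 11.1% and 11.2% in WT, a mean of 14.7% ± 2.69 against 10.7% ± 0.713 (SD, n = 3). Snord42a made up 5.17%, 6.50% and 5.11% in KO and 3.65%, 3.73% and 3.26% in WT. Snord99, a 28S guide of the host Snhg12, made up 2.07%, 2.17% and 2.24% in KO and 1.39%, 1.27% and 1.90% in WT. These shares were higher in every KO library than in any WT library, KO replicate 3 included. In the other direction, Snord32a made up 0.517%, 0.619% and 0.271% in KO and 1.06%, 0.783% and 0.850% in WT, Snord82 made up 0.776%, 0.619% and 0.373% in KO and 1.20%, 0.904% and 1.03% in WT, and Snord47 made up 0.129%, 0.619% and 0.542% in KO and 0.785%, 1.33% and 0.850% in WT. Snord16a, Snord57 and Snord71 also had lower shares in KO without overlap, from fewer counts. In all, 9 of 53 members did not overlap in share (3 higher and 6 lower in KO). Of 33432 entries divided by the same total, 29.1% did not overlap (7.4% higher and 21.7% lower). Most of those are piRNAs, which are not part of that total, so their percentage is not a like background for the members.

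**Figure D4:**
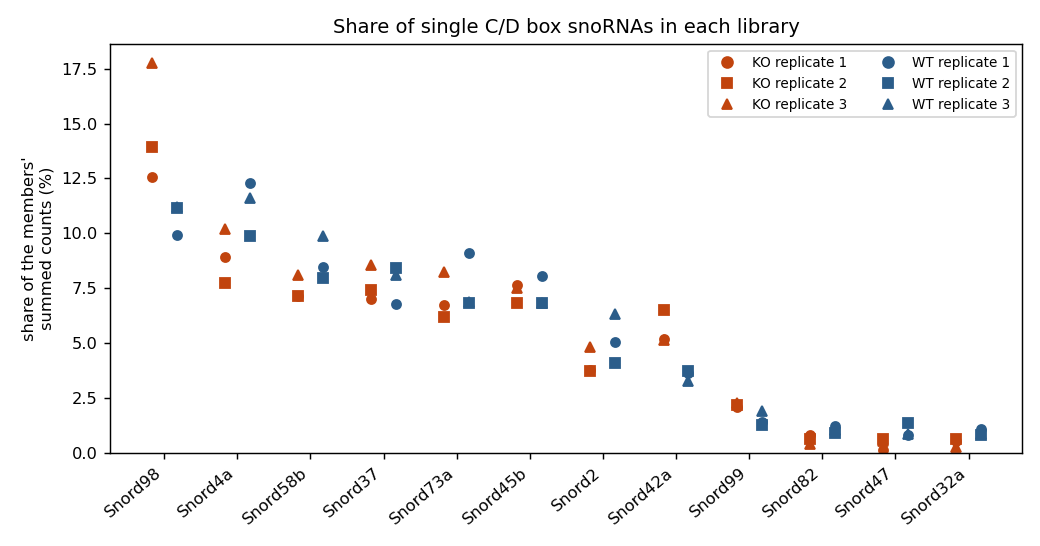
Share of the members' summed counts (%) taken by 12 single members in each library. Points are libraries, with the shape giving the replicate number; Snord98, Snord42a and Snord99 are higher in all 3 KO libraries than in any WT library, and Snord82, Snord47 and Snord32a are lower.

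In edgeR's test with the members' total as library size, 0 of 37 members were called lower (12.8% of 24682 entries) and 0 higher (4.75%), with 0 at an unadjusted p under 0.05. The log2 change on this scale was 0.46 for Snord98, 0.65 for Snord42a, 0.50 for Snord99, -1.07 for Snord32a and -1.20 for Snord47, with edgeR adjusted p between 0.425 and 0.765. The standard errors were larger than on the miRNA scale, 1.07 for Snord32a against 0.49. These changes thus have wide intervals, and the absence of calls does not show equal shares. The errors hardly followed depth, at 0.957 for Snord98 (2039 counts) and 1.07 for Snord35b (95 counts). The members' total also scaled the piRNAs, which lacked its replicate 3 excess, and such scaling widens the shared spread. The fit could therefore hardly call a member. With the spread of snoRNA entries, Snord42a was called higher (0.62, edgeR adjusted p = 0.0339; 5.33% of 75 entries) and 0 members lower (2.67%). In that fit 5 of 37 members had an unadjusted p under 0.05. With both replicate 3 libraries left out, 1 of 26 members was called higher (26.2% of 25068 entries) and 0 lower (29.4%).

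Members of a shared host gene differed in level. There were 9 hosts with several members, holding 21 of the 53. Rpl23a, a ribosomal protein gene, holds Snord4a, Snord42a and Snord42b, whose mean levels over all libraries spanned 13.0 times, from 104 miRNA-scaled counts for Snord42b to 1354 for Snord4a. The log2 change on the miRNA scale was -1.88 ± 0.40 for Snord4a, -1.003 ± 0.35 for Snord42a and -1.33 ± 0.51 for Snord42b (SE), and the differences between them were not tested. Snord42a and Snord42b are shown because they share a run of 18 nt that spans the D box and the bases before it, and both stand in the list of 18S guides; capitals mark the C and D boxes.
Snord42a: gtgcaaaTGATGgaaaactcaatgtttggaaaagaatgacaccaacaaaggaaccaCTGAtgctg
Snord42b: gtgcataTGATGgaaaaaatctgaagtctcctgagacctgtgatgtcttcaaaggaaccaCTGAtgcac
The run common to both is caaaggaaccaCTGAtgc. Snord42a lies at chr11:78181299-78181363 and Snord42b at chr11:78183056-78183124, both on the minus strand. Snord42b had 46.9, 20.5 and 107 miRNA-scaled counts in KO and 77.9, 25.5 and 345 in WT, against 170, 143 and 620 and 439, 316 and 1154 for Snord42a, and both overlapped between genotypes. In Rabggtb, Snord45b was 3.71 times as high as Snord45c. In Rpl13a, Snord32a, Snord33 and Snord35a spanned 5.54 times, and the 2 members of Nop56 were within 1.38 times of each other.

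As a sum, longer members differed less between replicate 3 and the other replicates, although single long members such as Snord16a in KO (10.6 times) did not. The classes were cut after the values were seen. The 28 members of up to 75 nt had a summed replicate 3 level of 4.76 times the mean of replicates 1 and 2 in KO and 3.64 times in WT, the 16 members of 76 to 95 nt had 3.40 and 3.13 times, and the 9 of 96 nt or more, which are Snord118, Snord13, Snord16a, Snord67, Snord22, Snord15b, Snord8, Snord15a and Snord90, had 2.01 and 1.92 times. The WT mean was 3.05, 3.81 and 4.01 times the KO mean in these 3 classes. In the 9 longest members the summed level was 204, 122.9 and 328 miRNA-scaled counts in KO and 662, 678 and 1288 in WT, and the genotypes did not overlap. Over the 42 members with at least 50 counts, the correlation of length with the replicate 3 ratio was -0.53 in WT and -0.13 in KO (Spearman's rho across members of the same libraries, which are not independent replicates). Over 46 other snoRNA entries with at least 50 counts it was -0.16 in WT and -0.33 in KO, so the stronger value lay in the other genotype there. The longest class holds 715 counts, so its ratios are less precise than those of the shorter members.

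**Figure D5:**
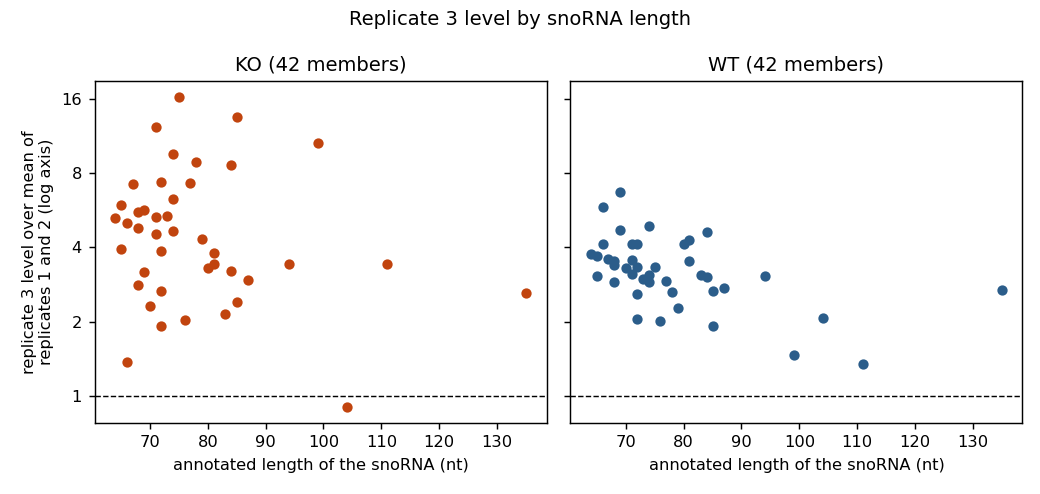
Ratio of the replicate 3 level to the mean of replicates 1 and 2 (log axis) against annotated length for the 42 members with at least 50 counts, in KO (left) and WT (right). Each point is a snoRNA and the dashed line marks a ratio of 1; all points but Snord13 in KO lie above it, and rho is -0.13 in KO and -0.53 in WT.

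Among members with at least 50 counts, the within-group CV averaged over both genotypes was smallest in Snord13 (33.0%), Snord19 (46.6%), Snord92 (48.2%) and Snord67 (49.8%). Snord19, an 18S guide in the nucleostemin gene Gnl3, had 72.4, 41.0 and 115 in KO and 134, 102 and 236 in WT, and its replicate 3 ratio was 2.03 in KO and 2.00 in WT. The largest CVs were those of Snord1b (116%), Snord38a (113%), Snord33 (112%) and Snord71 (101%). Snord1b had 8.52, 0 and 69.8 in KO and 77.9, 10.2 and 146 in WT, from 71 counts. Another entry, Snord1c, is nearly identical to it and held 5 counts. A count of 0 occurred in at least 1 KO library for 11 members and in a WT library for 1, and at 146487 miRNA counts in the shallowest library 1 count is worth 6.83 miRNA-scaled counts.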

How the data were processed

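Small RNA of the 6 libraries was isolated with the mirVana kit and libraries were made with the Ion Total RNA-Seq Kit v2, per the labels' protocols. The authors deposited raw counts, whole reads per reference entry, made with featureCounts v1.5.0-p2 per the file headers; cutadapt, DESeq2 and build mm9 are named in the submitters' processing notes. The aligner, and what it did with multiply matching reads, is not given in the sources used here. Counts of near-identical snoRNAs are therefore uncertain. Entry lengths in the table hold 20 nt more than the RNA. Sequences and positions come from GENCODE M21 (GRCm38), matched by transcript identifier, so no mm9 coordinate is printed. The deposited piRNA table was not used here.

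Members and lists were chosen with earlier results of these data known. Entries were tested with the quasi-likelihood test of edgeR 4.0.16 under R 4.3.3 (two-sided, filterByExpr at 10 counts and a total of 15, library size the miRNA total or the members' total, no block), with Benjamini-Hochberg adjustment over all tested entries and a threshold of 0.05. DESeq2 1.42.0 was an alternative, with other scalings, filters, the replicate block and libraries left out; fits with the spread of a subset of RNAs were added after seeing the data. An SE is the log2 change divided by the square root of edgeR's F. The procedure was tested on simulated counts. Named members are the 12 with the highest mean level, the 8 most negative and 8 least negative log2 changes, the 4 smallest and 4 largest CVs among members with at least 50 counts, and up to 2 per list by level; others are named for a threshold, a shared host or length. Tables and figures were made with Python 3.11.15. Depth limits precision: the members had 323 to 8706 counts per library.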

Additional observations from a re-analysis of the deposited data

How the results depend on the processing

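On the miRNA scale the members called lower in KO numbered 37 of 37. With whole-table TMM factors, 0 were called lower and 3 higher, with the table total 1 and 2, and with DESeq2's whole-table size factors 0 and 1. DESeq2 with miRNA size factors called 16 lower, a minimum count of 30 left 14 members, all 14 called (76.3% of 15180 entries), the robust spread gave 15, the spread of RNAs other than piRNAs 5 and that of snoRNA entries 0. Without both replicate 3 libraries and with the spread of RNAs other than piRNAs 22 of 26 were called, and 23 of 26 with that of snoRNA entries. Leaving out 1 library at a time changed the members tested as well. Without KO replicates 1, 2 and 3 in turn, 35 of 45, 34 of 45 and 38 of 38 were called. Without WT replicates 1, 2 and 3 in turn, 30 of 30, 29 of 29 and 15 of 26 were called. In these fits 72.6% to 74.8% of all entries were called lower. TMM factors of the miRNAs (36), of RNAs other than piRNAs (33), no filter (50 of 53), entries of 1 symbol summed (37) and both replicate 3 libraries left out (25 of 26) stayed within 1.5 times of the main count. The cause of these differences was not tested beyond the number of entries tested and the spread used. On the members' own total the count was 0 in each direction; without both replicate 3 libraries 1 was called higher, with the spread of snoRNA entries 1 was called higher, and 0 were called without any single library, with no filter or with TMM factors of the members.

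By the rule used, the replicate numbers were not treated as pairs. Over all tested entries the correlations of the deviations of same-numbered libraries were 0.026, 0.083 and 0.12. Over these entries each library correlated best with its own number, which is a hint from the data. Over the 37 tested members alone this did not hold throughout. Their same-number values were 0.069, 0.30 and 0.13, and KO replicate 3 correlated best with WT replicate 1 (0.15). Most of the tested entries were piRNAs, and a correlation over members does not see a shift that all of them share. The check could thus not settle whether the replicate 3 excess of the snoRNAs is a shared batch. Whether the numbers pair the libraries was thus not decided. With the replicate block, 37 of 37 members were called lower on the miRNA scale (76.9% of all entries), and 37 also with the spread of snoRNA entries (98.7% of 75 entries). On their own total 2 were called lower with the replicate block, Snord32a (-1.23, edgeR adjusted p = 0.0417) and Snord110 (-1.33, edgeR adjusted p = 0.0405), against 40.7% of all entries called lower and 28.1% higher. With the block and the spread of snoRNA entries 0 were called lower (4% of 75 entries) and 2 higher (8%), Snord42a (0.64) and Snord98 (0.49).

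The summed log2 difference of -1.67 became 0.15 per table total, 0.61 per tRNA counts, 0.37 per annotated piRNA counts, -0.29 per mitochondrial tRNA counts and -0.17 per counts of the other snoRNA entries; without single libraries it ranged from -2.76 to -0.80. It was -1.35 per endo-siRNA counts and -1.73 without Snord98 and Snord4a.

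Named members that changed sign did so mainly with whole-table scaling. Under whole-table TMM factors, 24 of the 37 tested members were positive, and the log2 changes of the named ones among them were Snord98 0.96, Snord4a 0.14, Snord58b 0.15, Snord37 0.44, Snord73a 0.46, Snord45b 0.45, Snord2 0.066, Snord42a 1.00, Snord49a 0.27, Snord49b 0.55, Snord95 0.50, Snord72 0.59, Snord11 0.63, Snord42b 0.65, Snord99 0.75, Snord64 0.74, Snord19 0.95, Snord13 0.14, Snord1b 0.51, Snord55 0.15 and Snord96a 0.0627. With the table total 16 were positive, the named ones being Snord98 0.75, Snord37 0.23, Snord73a 0.25, Snord45b 0.25, Snord42a 0.80, Snord49a 0.0794, Snord49b 0.36, Snord95 0.31, Snord72 0.40, Snord11 0.44, Snord42b 0.46, Snord99 0.56, Snord64 0.55, Snord19 0.77 and Snord1b 0.33. With DESeq2's whole-table size factors 23 were positive, the named ones being Snord98 0.90, Snord4a 0.0653, Snord58b 0.0758, Snord37 0.37, Snord73a 0.37, Snord45b 0.38, Snord42a 0.94, Snord49a 0.23, Snord49b 0.52, Snord95 0.45, Snord72 0.53, Snord11 0.62, Snord42b 0.65, Snord99 0.72, Snord64 0.70, Snord19 0.91, Snord13 0.11, Snord1b 0.42, Snord55 0.0946 and Snord96a 0.0108. Without single libraries Snord42b ranged from -2.10 to 0.31 and Snord99 from -2.43 to 0.022, both positive without WT replicate 3.

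Depth limits the rarer members: 16 of 53 did not pass the filter, and those had 19 to 67 counts in all.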
